A study of Auxenochlorella pyrenoidosa with 12 samples.

Results

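The comparison described here sets the highest dose of an oxidant against the middle dose in cultures of a unicellular green alga, Auxenochlorella pyrenoidosa, also known as Chlorella pyrenoidosa. Whole cells had been exposed to potassium peroxymonosulfate (PMS) at 0.5 EC50, which is 8.49 mg/L, or at 0.2 EC50, which is 3.40 mg/L, with 3 RNA-seq libraries at each dose. EC50 is the concentration with an effect midway to the maximum, taken by the study from its own acute toxicity test. The other groups of the series were 0.1 EC50, which is 1.70 mg/L, and an unexposed control without PMS, with 3 libraries each. No genotype, transgene or second agent is named for any group, and for the RNA, the sampling day within the chronic exposure was left unstated by the labels. Contigs are assembled transcript sequences, and a contig was included when its FPKM averaged 1 or more across the 6 libraries at 0.5 and 0.2 EC50. FPKM is the fragment number scaled by contig length and library size, so levels can be compared between contigs. Of the 29140 contigs in the table, 17508 met this rule. At the edge of the rule, the 482 contigs with a mean of 1 to 1.05 FPKM had median levels of 1.19 FPKM at 0.5 EC50 and 0.872 FPKM at 0.2 EC50. The 514 contigs just outside it, with a mean of 0.95 to 1 FPKM, had 1.08 FPKM at 0.5 EC50 and 0.866 FPKM at 0.2 EC50.

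Peroxymonosulfate is a peroxide-type oxidant used in water treatment, and it can give rise to sulfate and hydroxyl radicals when it is activated. Green algae answer oxidants in general with enzymes such as superoxide dismutase, catalase and ascorbate peroxidase, with glutathione and thioredoxin systems, and with changes in the photosynthetic apparatus. Here the table gives contig identifiers alone, without gene names, so none of these systems could be looked up, no marker of the alga was checked, and a role is given to no contig. The comparison of the 2 doses shows which transcripts differ between a stronger and a weaker exposure, both of them exposed cultures. Levels are shares of a library's RNA, so a lower level in a culture cannot be told apart from more RNA of other transcripts, and fewer cells of a kind cannot be told apart from less RNA per cell.

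Summed FPKM lay between 507301 and 561291 in the 0.5 EC50 libraries and between 503295 and 544288 in the 0.2 EC50 libraries, and the number of reads behind each library is unknown. The labels do not state whether a group's 3 libraries are from separate cultures, so p-values reflect the spread among these samples alone, and that spread may be technical. Some libraries stood apart from the others of their group. In 0.2 EC50 replicate 2, 1080 of the tested contigs were at least 2-fold below both other libraries of its group on the log2(FPKM + 1) scale, against 123 and 178 in replicates 1 and 3. In the 0.5 EC50 libraries this number was 347, 217 and 214. In the other direction, 630 contigs of 0.2 EC50 replicate 1 were at least 2-fold above both others, against 54 and 348 in replicates 2 and 3. 0.2 EC50 replicate 2 also held a smaller share of low values at its commonest ratio to control replicate 1 (1.89%) than the other 5 libraries compared here (3.12% to 5.03%). Outside the comparison, 0.1 EC50 replicates 2 and 3 and control replicate 2 (1.48% to 2.31%) had shares like it, and these are the 4 libraries of low shares. Results are also given without 0.2 EC50 replicate 2.

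At 0.5 EC50 more transcripts were called higher than lower relative to 0.2 EC50 in the values as deposited, while after quantile normalization lower calls were the more numerous. Of the 17508 contigs, 1161 were called, which is 6.63%, with 959 higher (5.48%) and 202 lower (1.15%) at 0.5 EC50. A call means that limma's moderated test, two-sided, gave an adjusted p (Benjamini-Hochberg) below 0.05, and 24.8% of contigs had an unadjusted p under 0.05. The contigs called higher had a median level of 7.69 FPKM at 0.5 EC50 and 3.86 FPKM at 0.2 EC50, and those called lower had 13.6 FPKM at 0.5 EC50 and 21.2 FPKM at 0.2 EC50. Among the contigs called higher, the median difference was 0.80 on the log2(FPKM + 1) scale as deposited, with quartiles of 0.62 and 1.13. On this scale 322 of them (1.84% of all tested) were at least 2-fold and 21 at least 4-fold higher. Among those called lower, the median was -0.56, with quartiles of -0.74 and -0.45, and 18 (0.103% of all tested) were at least 2-fold and 0 at least 4-fold lower. In all 1161, the 3 values of 1 dose lay wholly above the 3 values of the other dose, which was the case for 30.1% of all tested contigs (23.2% higher and 6.87% lower at 0.5 EC50). The filter was met with the help of the higher group in 160 of the contigs called higher, whose mean at 0.2 EC50 was under 1 FPKM, and in 5 of those called lower, whose mean at 0.5 EC50 was under 1 FPKM.

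**Figure D1:**
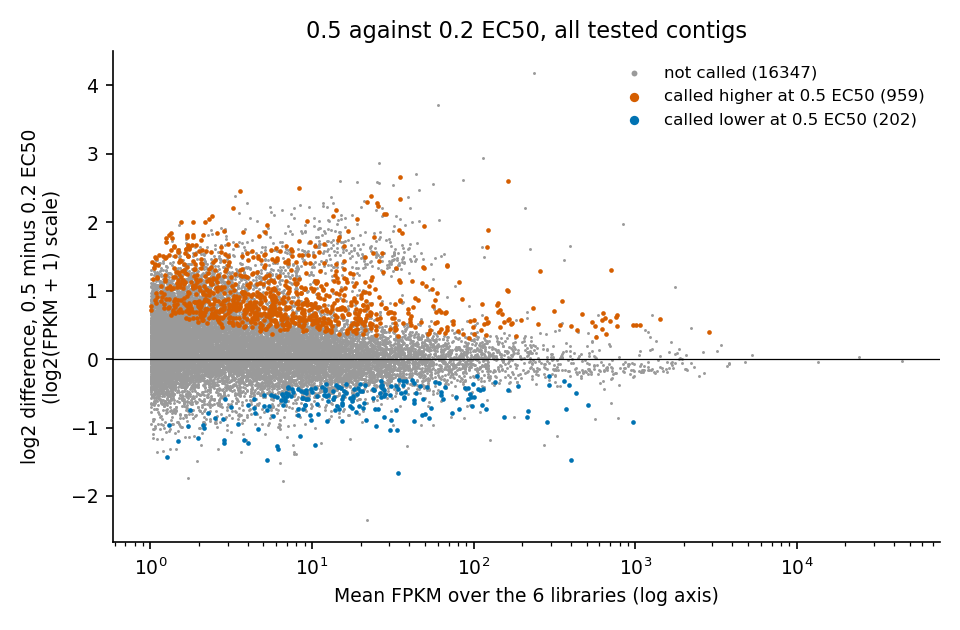
Log2 difference between 0.5 and 0.2 EC50 (y axis, log2(FPKM + 1) scale) against the mean FPKM over the 6 libraries (x axis, log axis), with 1 point per tested contig, as deposited. The 959 contigs called higher reach further from 0 (up to 2.66) than the 202 called lower (down to -1.67), and gray points above them are large differences with a wide spread that were not called.

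The balance of higher and lower calls depended on how the libraries were scaled to each other. The median difference of all tested contigs was 0.152 on the log2 scale as deposited and 66.1% of contigs were above 0. Median-of-ratios scaling moved that median to 0.017 and gave 476 higher and 409 lower calls, quantile normalization 514 higher and 566 lower, and libraries set to 1 common total 613 higher and 205 lower. Of the 959 and 202 contigs, 377 and 201 were called the same way as deposited, after median-of-ratios scaling and after quantile normalization. Without 0.2 EC50 replicate 2, 430 were higher and 107 lower. Without 0.5 EC50 replicate 1, 2 or 3 the total was 766, 452 or 390, and without 0.2 EC50 replicate 1 or 3 it was 582 or 764. Without 0.1 EC50 replicate 2 and without control replicate 1, which entered only the estimate of the spread, 130 and 131 were called lower. With all 4 libraries of low shares left out 206 were higher and 49 lower, and with the low or high share as a term in the fit 519 and 105. In all 6 fits that left out 1 library of the 2 doses, 285 of the 959 and 36 of the 202 contigs were called.

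On the log2(FPKM + 1) scale, the largest rise among called contigs was that of TRINITY_DN18466_c0_g1_i1_3. It had 62.86, 66.34 and 53.71 FPKM in the 0.5 EC50 libraries, against 10.16, 5.188 and 12.52 FPKM in the 0.2 EC50 libraries. The lowest 0.5 EC50 library was thus more than 4 times as high as the highest 0.2 EC50 library, and the lowest value at 0.2 EC50 was that of replicate 2. On the log2 scale the doses differed by 2.66 ± 0.265 (SE, 95% interval 2.07 to 3.25, limma adjusted p = 0.000892). At the other end of the series it had 3.333, 1.922 and 3.274 FPKM at 0.1 EC50 and 1.289, 1.116 and 1.77 FPKM in the controls. The values of all 4 groups were separate, and the mean was higher at each step of dose. By ratio of means it was not the largest, at 6.56, against 21.1 for the fourth largest rise under the naming rule below.

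TRINITY_DN13892_c0_g1_i1_2 followed the same order at a higher level. It had 304.7, 314.8 and 215.3 FPKM at 0.5 EC50, against 53.91, 23.55 and 68.9 FPKM at 0.2 EC50. These values do not overlap, and replicate 2 again was the lowest at 0.2 EC50. The difference was 2.60 ± 0.379 (SE, 95% interval 1.76 to 3.43, limma adjusted p = 0.00408), and the mean at 0.5 EC50 was 5.70 times that at 0.2 EC50. At 0.1 EC50 its values were 22.47, 12.92 and 20.08 FPKM, and in the controls 9.547, 4.699 and 9.158 FPKM. Its difference between 0.1 EC50 and control was 1.17 and did not pass the test (adjusted p = 0.0877), and that of the first contig was 0.67 (adjusted p = 0.158). The step between 0.2 and 0.1 EC50 did not pass either, at 1.26 for this contig (adjusted p = 0.226) and 1.37 for the first (adjusted p = 0.155). Both rises were called under 25 of 26 alternatives, and the exception was a test against a minimum change of 2-fold (adjusted p = 0.122 for the first and 0.841 for the second).

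The named contigs with the largest falls on the log2(FPKM + 1) scale had another shape, with 0.5 EC50 alone low. TRINITY_DN11838_c0_g1_i1_2 had 24.68, 12.98 and 10.84 FPKM at 0.5 EC50, against 60.27, 36.44 and 58.42 FPKM at 0.2 EC50. The groups do not overlap, and 0.5 EC50 replicate 1 was the nearest to the 0.2 EC50 values. The difference was -1.67 ± 0.361 (SE, 95% interval -2.46 to -0.87, limma adjusted p = 0.0245). Its 0.1 EC50 values of 50.22, 33.1 and 42.57 FPKM and control values of 53.27, 42.1 and 101.9 FPKM lay above those at 0.5 EC50. It did not differ between 0.2 EC50 and control in the test (-0.27, 95% interval -1.07 to 0.52, adjusted p = 0.728). In the test against a minimum change of 2-fold, this contig was not called. Its call ended without 0.5 EC50 replicate 2 (-1.56, adjusted p = 0.0866) or replicate 3 (-1.44, adjusted p = 0.0892) and without 0.2 EC50 replicate 1 (-1.54, adjusted p = 0.0707) or replicate 3 (-1.56, adjusted p = 0.0677). It also ended with only the 6 libraries in the fit (adjusted p = 0.0611) and in the fit that left out all 4 libraries of low shares (-1.90, adjusted p = 0.0727).

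TRINITY_DN33_c0_g2_i1_1 was a lower-level contig of the same shape. It had 2.029, 1.852 and 3.041 FPKM at 0.5 EC50, against 8.35, 6.163 and 10.05 FPKM at 0.2 EC50. The 2 doses were well apart, while its 0.1 EC50 values of 4.471, 6.924 and 13.15 FPKM and control values of 8.671, 5.672 and 8.086 FPKM overlapped those at 0.2 EC50. The difference was -1.47 ± 0.313 (SE, 95% interval -2.16 to -0.78, limma adjusted p = 0.0231). This contig, too, was not called in the test against a minimum change of 2-fold. Its call ended without 0.5 EC50 replicate 1 (-1.41, adjusted p = 0.0621) or replicate 2 (-1.37, adjusted p = 0.0839), without 0.2 EC50 replicate 1 (-1.45, adjusted p = 0.0623) or replicate 3 (-1.32, adjusted p = 0.0677) and with the low or high share as a term (-1.39, adjusted p = 0.0645).

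**Figure D2:**
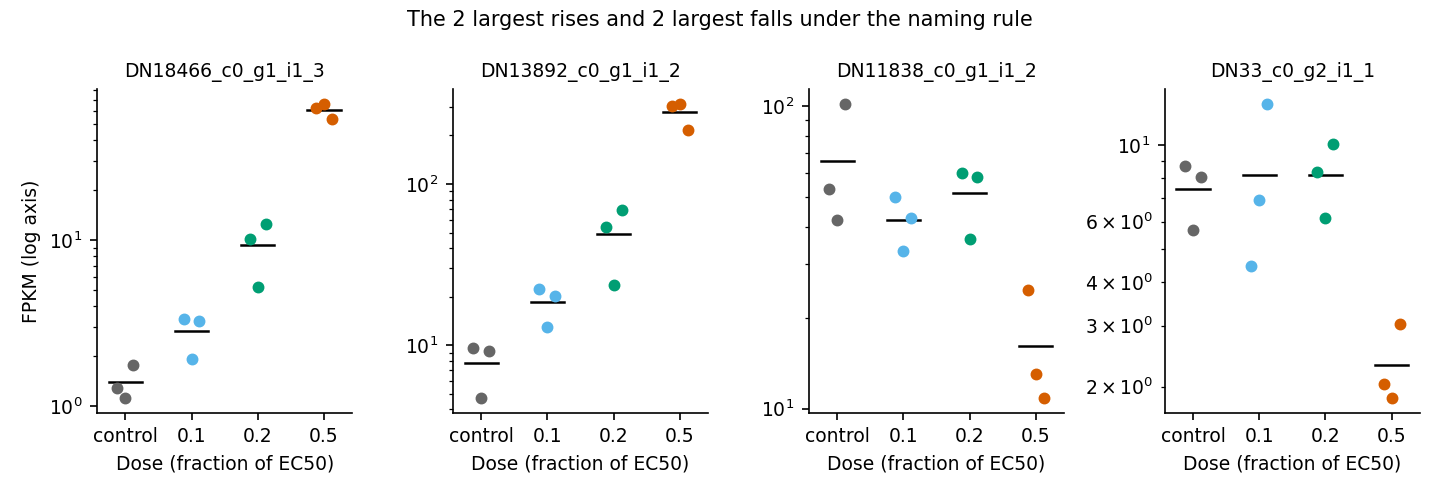
FPKM (y axis, log axis) of the 4 named contigs in each of the 12 libraries by dose (x axis, fraction of EC50, with the control at the left), with points for libraries and lines for means of 3. The first 2 contigs climb with every dose to means of 61.0 and 278 FPKM at 0.5 EC50, and the other 2 are low at 0.5 EC50 only, with means of 16.2 and 2.31 FPKM.

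The naming rule asked for a call, no overlap and a mean of at least 5 FPKM in whichever dose had the higher mean, and 624 rises and 186 falls met it. Among the 10 largest rises, differences ran from 2.21 to 2.66, and in 7 the means climbed in the order of control, 0.1, 0.2 and 0.5 EC50. An example is the fifth, with 39.5 FPKM at 0.5 EC50 and 6.97 FPKM at 0.2 EC50, and 3.67 FPKM at 0.1 EC50 and 2.10 FPKM in the controls (difference between 0.5 and 0.2 EC50 2.38 ± 0.203, SE, limma adjusted p = 0.000785). In the tenth, the control stood well above 0.2 EC50, with 5.98 FPKM at 0.5 EC50 and 0.521 FPKM at 0.2 EC50, and 5.85 FPKM at 0.1 EC50 and 4.72 FPKM in the controls (2.21 ± 0.565, adjusted p = 0.0436). Among the 10 largest falls, differences ran from -1.67 to -1.04. In 7 of them the control mean lay between those of 0.5 and 0.2 EC50, and in the other 3 it lay above 0.2 EC50. The tenth of the falls had 21.7 FPKM at 0.5 EC50 and 45.6 FPKM at 0.2 EC50, and 38.8 FPKM at 0.1 EC50 and 22.5 FPKM in the controls (-1.04 ± 0.111, adjusted p = 0.000966). There 0.5 EC50 and control were alike in mean, and so were 0.2 and 0.1 EC50.

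Abundant transcripts were also called. The most abundant contig called higher averaged 3250 ± 73.8 FPKM at 0.5 EC50 and 2480 ± 240 FPKM at 0.2 EC50 (SD, n = 3 each, log2 difference 0.40 ± 0.0814, SE, limma adjusted p = 0.0201). It made up 0.606% of summed FPKM at 0.5 EC50 and 0.478% at 0.2 EC50. The next averaged 1720 ± 114 FPKM at 0.5 EC50 and 1150 ± 106 FPKM at 0.2 EC50 (0.58 ± 0.0914, adjusted p = 0.00574), and its means were 1130 FPKM at 0.1 EC50 and 1600 FPKM in the controls. The most abundant contig called lower averaged 673 ± 69.4 FPKM at 0.5 EC50 and 1280 ± 93.3 FPKM at 0.2 EC50 (-0.92 ± 0.133, adjusted p = 0.00395). Its means in the other groups were 1670 FPKM at 0.1 EC50 and 1280 FPKM in the controls. The third by level among those called lower, also the third largest fall under the naming rule, averaged 205 ± 15.5 FPKM at 0.5 EC50 and 594 ± 231 FPKM at 0.2 EC50 (-1.47 ± 0.202, adjusted p = 0.00309). The 5 most abundant contigs of each list differed by 0.40 to 0.58 among those called higher and by -1.47 to -0.49 among those called lower. These contigs were picked by level within the called lists, after their values were seen.

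The largest differences of all on the log2(FPKM + 1) scale did not pass the test. Of 1378 contigs at least 2-fold higher at 0.5 EC50, 322 were called and 1056 were not, and among those not called the 2 doses overlapped in 390. Of 68 contigs at least 2-fold lower, 18 were called. The contig with the largest difference, picked after its values were seen, had 428, 41.7 and 855 FPKM at 0.5 EC50, against 4.71, 4.19 and 88.1 FPKM at 0.2 EC50 (4.18 ± 1.59, SE, limma adjusted p = 0.137). Replicate 2 was more than 10 times lower than the other 0.5 EC50 libraries, and replicate 3 was the highest at both doses. The next 2 contigs by size had the same order of libraries at 0.5 EC50, with 91.3, 11.9 and 229 FPKM and with 199, 26.1 and 393 FPKM at 0.5 EC50 (adjusted p = 0.124 and 0.187). Their 0.2 EC50 values were 0.570, 1.79 and 26.4 FPKM and 6.70, 12.1 and 46.2 FPKM. The 2-fold rises that were called had a median SD between libraries of 0.235 on the log2 scale at 0.5 EC50 and 0.287 at 0.2 EC50. In those that were not called it was 0.446 at 0.5 EC50 and 0.828 at 0.2 EC50. At the low end, 1 contig was listed at 132 FPKM in 0.2 EC50 replicate 3 and at no more than 5.79e-54 FPKM in every other library.

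Calls were unevenly spread over levels of expression. Among 9891 contigs with a mean of 1 to 5 FPKM, 4.34% were called higher and 0.233% lower at 0.5 EC50. Among 4923 contigs at 5 to 20 FPKM the shares were 7.13% and 1.81%, among 2073 contigs at 20 to 100 FPKM 6.03% and 3.23%, and among 621 contigs over 100 FPKM 8.70% and 3.70%. The median difference of all contigs was smaller at each higher level, at 0.233, 0.086, 0.032 and -0.004. Contigs at 1 to 5 FPKM had both the largest median difference and the widest error, with a median SE of 0.289 against 0.125 over 100 FPKM. After median-of-ratios scaling the lowest class still had more higher than lower calls, 217 and 49, while the highest class had 12 and 36.

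Contig names end in a number from 1 to 4 that the sources used here do not explain, and the share of calls varied with it. The variation was not tested. Names ending in 3 gave 358 higher and 30 lower calls among 5061 contigs, with a median difference of 0.309 over all of them. Names ending in 2 gave 83 and 45 among 2946 contigs, with a median of 0.013. Names ending in 1 gave 255 and 41 among 3916 contigs, and names ending in 4 gave 263 and 86 among 5585 contigs. After median-of-ratios scaling the medians were 0.185 for names ending in 3 and -0.123 for names ending in 2, and the cause was not tested. Without the isoform and last numbers, 13918 distinct names remained and 3020 of them had more than 1 tested contig. Of the 13918 names, 940 had a contig called higher and 202 a contig called lower. In 9 names contigs were called in both directions, 19 had more than 1 contig called higher and 0 had more than 1 called lower. These counts were not set against those that the shares over all tested contigs (5.48% higher and 1.15% lower) would give. A shared name may not be a shared gene, because the last number is unexplained.

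**Figure D3:**
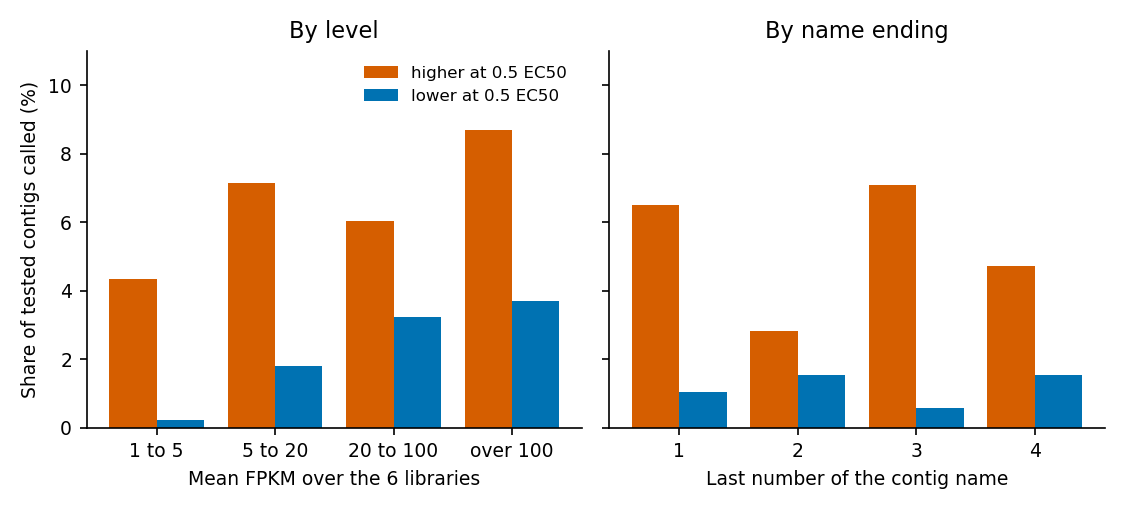
Share of tested contigs called higher and lower at 0.5 than at 0.2 EC50 (y axis, percent) by mean FPKM over the 6 libraries (left) and by the ending of its name (right). Higher calls outnumber lower calls in every class, from 2.82% against 1.53% for names ending in 2 to 7.07% against 0.593% for names ending in 3; under median-of-ratios scaling the split turns in all classes but 1 to 5 FPKM and names ending in 1 and 3.

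The called contigs were a modest part of the RNA. Contigs called higher held 7.38%, 7.46% and 7.36% of summed FPKM in the 0.5 EC50 libraries, against 4.69%, 4.80% and 4.86% in the 0.2 EC50 libraries. Those called lower held 1.56%, 1.45% and 1.44% at 0.5 EC50, against 2.49%, 2.28% and 2.42% at 0.2 EC50. These shares follow from how the contigs were chosen. The 0.1 EC50 and control levels did not enter the difference, although these libraries entered the estimate of the spread. There the contigs called higher held 4.77% ± 0.250 at 0.1 EC50 and 6.20% ± 0.208 in the controls, and those called lower held 2.36% ± 0.158 at 0.1 EC50 and 2.00% ± 0.0571 in the controls (SD, n = 3 each). In both sets the 0.1 EC50 libraries were close to 0.2 EC50, and the controls lay between 0.2 and 0.5 EC50.

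**Figure D4:**
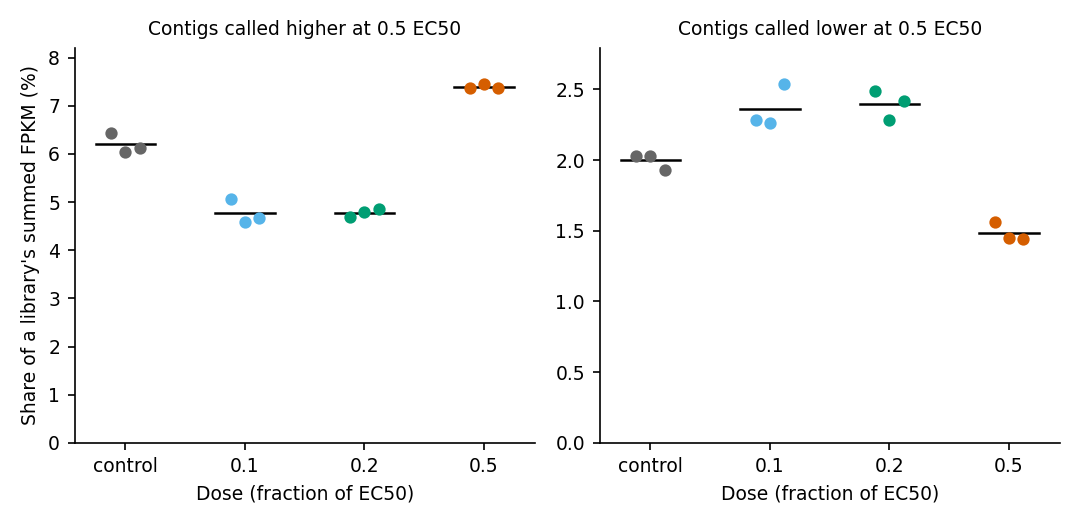
Share of a library's summed FPKM (y axis, percent) held by the 959 contigs called higher (left) and the 202 called lower (right) at 0.5 than at 0.2 EC50, by dose (x axis, fraction of EC50), with points for libraries and lines for means of 3. The 0.1 and 0.2 EC50 libraries sit side by side, at means of 4.77% and 4.78% on the left, while the controls average 6.20% and the 0.5 EC50 libraries 7.40%.

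The control mean stood on either side of 0.2 EC50. In 774 of the 959 contigs called higher, the control mean lay above 0.2 EC50, and these had median FPKM of 6.72 without PMS, then 3.85 at 0.1 EC50, 4.00 at 0.2 EC50 and 7.89 at 0.5 EC50. Counted by place, the control was at or above 0.5 EC50 in 15.4% of the 959 and between the 2 doses in 65.3%, against 20.3% and 38.4% of all tested contigs with a difference above 0. In the remaining 185 contigs called higher the control mean was at or below 0.2 EC50, with medians of 1.80 FPKM without PMS, then 1.95 at 0.1 EC50, 2.58 at 0.2 EC50 and 6.66 at 0.5 EC50. Of these 185 contigs 89 were at least 2-fold higher, and of the 774 contigs 233 were. Means climbed at every step from control to 0.5 EC50 in 78 contigs, 8.13% of those called higher, against 14.6% of all tested contigs with a difference above 0. The commonest order, with 344 contigs or 35.9%, was 0.1 EC50 lowest, then 0.2 EC50, control and 0.5 EC50, and that order had 21.5% of all tested contigs above 0. Among the 202 contigs called lower, the control mean lay below 0.2 EC50 in 173, with medians of 13.2 FPKM without PMS, then 16.7 at 0.1 EC50, 19.0 at 0.2 EC50 and 13.0 at 0.5 EC50. The control was at or below 0.5 EC50 in 38.1% of the 202 and between the 2 doses in 47.5%, against 49.9% and 23.1% of all tested contigs with a difference below 0. The contigs were chosen with the 0.5 and 0.2 EC50 values, so their place relative to those 2 doses is a description.

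The difference between 0.1 EC50 and control shares no library with that between 0.5 and 0.2 EC50, and it ran the other way in many of the same contigs. Among the 959 contigs called higher at 0.5 EC50, 353 (36.8%) were called lower at 0.1 EC50 than in the controls and 6 were called higher. Over all tested contigs 8.74% were called in that comparison, 6.35% lower and 2.4% higher. Among the 202 contigs called lower at 0.5 EC50, 67 (33.2%) were called higher at 0.1 EC50 than in the controls and 7 were called lower. Read from the other side, the 353 contigs were 31.8% of the 1111 lower at 0.1 EC50 than control, and the 67 were 16.0% of the 420 higher. The median difference between 0.1 EC50 and control was -0.36 in the contigs called higher, 0.29 in those called lower and -0.08 in all tested contigs, and after median-of-ratios scaling -0.25, 0.43 and 0.03. Of the 959 contigs 83.0% had a difference below 0, and of the 202 contigs 17.3%, against 59.2% of all tested contigs.

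**Figure D5:**
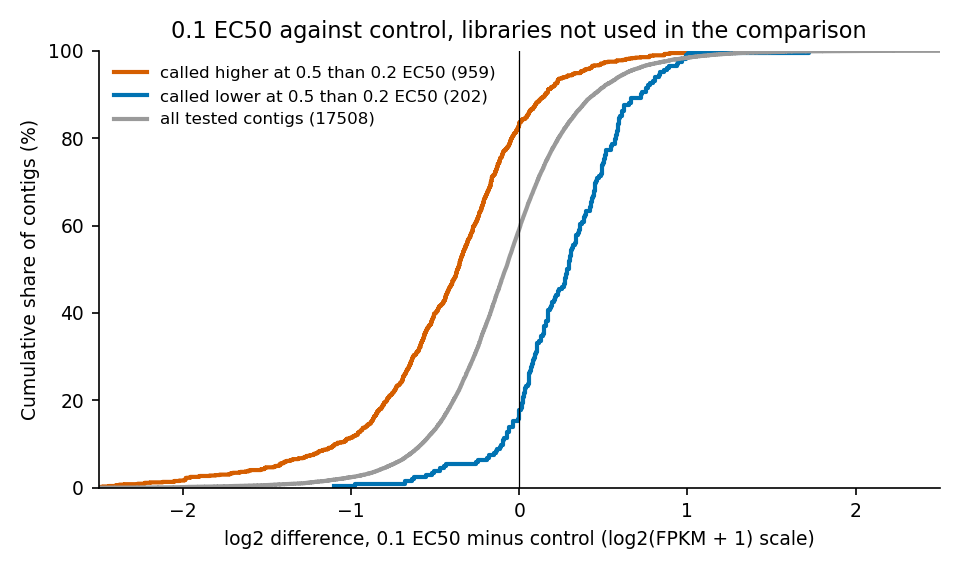
Cumulative share of contigs (y axis, percent) by log2 difference between 0.1 EC50 and control (x axis, log2(FPKM + 1) scale), for the contigs called higher and lower at 0.5 than at 0.2 EC50 and for all tested contigs. The curve of the contigs called higher lies to the left of all contigs (83.0% below 0 against 59.2%) and that of the contigs called lower to the right (17.3% below 0).

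The 2 comparisons were fitted together and shared 1 estimate of the spread of each contig. With each comparison fitted on its own 6 libraries, an alternative added after the data were seen, 87 of 336 contigs higher at 0.5 EC50 (25.9%) were lower at 0.1 EC50 than control, where 2.64% of all contigs were. In that setting 14 of 39 contigs lower at 0.5 EC50 (35.9%) were higher at 0.1 EC50 than control, where 0.948% were. Without 0.2 EC50 replicate 2 the shares were 44.0% and 30.8%, and without 0.5 EC50 replicate 2 or 3 the first was 41.7% (168 contigs) or 43.4% (144 contigs). Without 0.2 EC50 replicate 1, 0.1 EC50 replicate 2, control replicate 1 or control replicate 3 it was 36.0% (187 contigs), 26.2% (197), 28.1% (211) or 24.2% (225). For the contigs called lower at 0.5 EC50, leaving out any 1 library other than 0.1 EC50 replicate 1 left 20 to 44 contigs in place of 67, at shares of 23.8% to 48.1%. The lowest shares were 13.1% and 2.04%, with all 4 libraries of low shares left out, where 0.748% of all contigs were lower and 0.308% higher and 1 library remained at 0.1 EC50. The second of these shares was 1 contig of 49, while 2 of the 49 were called lower in both comparisons, so the opposite direction was not seen for them in that setting. With the low or high share as a term the counts were 114 of 519 and 21 of 105, where 1.72% and 0.697% of all contigs were called. Median-of-ratios scaling gave 186 (39.1%) and 133 (32.5%), where 4.26% and 3.66% were, and quantile normalization 180 (35.0%) and 126 (22.3%), where 4.43% and 2.70% were.

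More contigs reached 1 FPKM at 0.5 than at 0.2 EC50. Their number was 18475, 18157 and 18419 in the 0.5 EC50 libraries, against 17280, 14015 and 17446 in the 0.2 EC50 libraries, over all 29140 contigs. The groups did not overlap, and 0.2 EC50 replicate 2 was far below the other libraries of the 2 doses. The 0.1 EC50 libraries had 14989, 15349 and 16866 and the controls 16118, 16569 and 18261. The number thus did not climb at each step from the control, and control replicate 3 was above 0.5 EC50 replicate 2. The means differed by 2103 contigs, and an exact two-sided permutation test over the 20 splits of 6 libraries gave p = 0.1, the smallest it can give with 3 against 3. Without 0.2 EC50 replicate 2 the difference was 987 contigs, and after median-of-ratios scaling it was 1287. Of contigs listed at 0 in all 3 libraries of 0.2 EC50, 10 had at least 1 FPKM in all 3 libraries of 0.5 EC50, at 1.03 to 7.35 FPKM, and 1 contig had the reverse pattern, at 1.15 to 1.52 FPKM in the 0.2 EC50 libraries. These contigs were picked out of all 29140 by their values at the 2 doses. Of the 10 contigs 6 passed the filter, through 0.5 EC50 alone, and 3 of them were called, where 6.63% of all tested contigs were. Their direction and lack of overlap were fixed by the choice, so these counts are a description. Of the 10 contigs 0 were listed at 0 in all 3 controls.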

How the data were processed

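Total RNA of whole cells went into Illumina TruSeq libraries, per the labels' protocols. Values are FPKM as deposited by the authors, a unit known from the name of the table. Which assembler, aligner, estimator and build made them is not stated by the labels, and read depth is unknown, so no counting interval is given. The values are model estimates (smallest positive value 2.26e-146).

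Titles gave each sample's dose and group. Values were tested as log2(FPKM + 1), a scale that understates the change of low contigs, using limma (version 3.58.1, under R 4.3.3) and its prior trend. All 12 libraries entered 1 fit of 4 group means with 8 residual degrees of freedom, and p-values were adjusted over 17508 contigs. The procedure was run on simulated data with independent errors for each contig and library. Shifts shared by many contigs of a library were not simulated, so that run says nothing about their effect on calls. Contigs were named as the 2 largest rises and the 2 largest falls that were called, averaged 5 FPKM or more in whichever dose had the higher mean and did not overlap. The comparison, lists, rules and alternatives were chosen with earlier results of these data known. Low-value ratios are log2 ratios, in bins of 0.02 within 0.5 of equal values, between contigs of 0.01 to 1 FPKM in both libraries. Alternatives changed the pseudocount, filter, scaling, prior, weights, minimum change, covariates and libraries. Plots used matplotlib 3.10.9 under Python 3.11.15.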

Additional observations from a re-analysis of the deposited data

Results flagged for a closer look

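These results were picked out because 2 doses of PMS were tested against each other and gave different levels. Between 0.5 and 0.2 EC50, 1161 contigs were called in limma's test. TRINITY_DN18466_c0_g1_i1_3 (log2 difference 2.66) and TRINITY_DN13892_c0_g1_i1_2 (2.60) were higher at 0.5 EC50 in 3 of 3 libraries. TRINITY_DN11838_c0_g1_i1_2 (-1.67) and TRINITY_DN33_c0_g2_i1_1 (-1.47) were lower in 3 of 3 libraries. The naming rule asked for a call and no overlap, so this separation follows from how the contigs were chosen.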

How the results depend on the processing

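The sign of all 4 named contigs was kept under 26 alternatives each. Their calls were kept under 25, 25, 19 and 20 of them. The totals below are contigs called between 0.5 and 0.2 EC50 in limma's test, 1161 in all, 959 higher and 202 lower. Without a filter 29140 contigs were tested in place of 17508, and 750 were called, 108 of them lower. Without the prior trend 127 were lower. Library weights gave 2456, 1961 higher and 495 lower. Only the 6 libraries compared gave 375, 336 higher and 39 lower. With all 4 libraries of low shares left out 255 were called, 206 higher and 49 lower, and with that share as a term 624, 519 and 105. After quantile normalization 514 were higher and 566 lower, with an equal total per library 613 were higher, and with median-of-ratios scaling 476 were higher and 409 lower. Called alike as deposited, with median-of-ratios scaling and after quantile normalization were 578, 377 of them higher. With an equal total per library, 609 of the 959 and 165 of the 202 contigs were still called. A minimum change of 2-fold gave 0 calls in total, 0 higher and 0 lower, where 106 contigs had an unadjusted p under 0.05. Leaving out 1 library at a time gave between 390 and 1230 contigs in all, between 332 and 990 higher and between 49 and 240 lower. The replicate number as a block gave 1543, 1234 higher and 309 lower. Between the 2 doses, deviations of libraries with the same number had correlations of -0.05, -0.13 and 0 across contigs. Those of libraries with different numbers ran from -0.24 to 0.28. Whether libraries with the same number belong together was not tested. The difference between the doses in contigs reaching 1 FPKM kept its direction without each library in turn (987 to 2703 contigs) and after median-of-ratios scaling (1287), as did the number above 0 (825), at 0.1 FPKM (950) or at 5 FPKM (742). Where 1 library was left in a group it was assumed to vary like the others. The causes of these changes were not tested. Depth is unknown, so the counting error of low values could not be computed.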

Other observations

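Within groups, the same libraries stood at the edge for many contigs. The first principal component of the deviations from group means held 28.3% of their variance over the 17508 contigs. The libraries with the highest scores were control replicate 3, 0.2 EC50 replicate 1 and 0.5 EC50 replicate 2, and those with the lowest were control replicate 2 and 0.2 EC50 replicate 2. In 0.5 EC50 replicate 2, 301 contigs were at least 2-fold above both other libraries of the group, in 0.2 EC50 replicate 1, 630, and in control replicate 3, 945. The counts did not follow the scores throughout. 0.2 EC50 replicate 3 had 348 such contigs at a score of -7.7, while 0.5 EC50 replicate 2 scored 21.5. The labels name no batch.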
